A study of Mus musculus with 6 samples.

Results

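The MHC class II genes were followed in the cecum of 3 HBUS mice, through the 7 genes H2-Aa, H2-Ab1, H2-Eb1, H2-DMa, H2-DMb1, Cd74 and Ciita. They were chosen by symbol among 37991 Ensembl gene identifiers, and all 7 were found. RNA was sequenced from a serrated polyp and from the surrounding normal (distal) cecum of each animal, giving 6 libraries in 3 pairs, with tissue taken after 60 weeks. HBUS, the strain named in the labels, is known to combine an HB-EGF transgene (a growth factor) with a US28 transgene (a chemokine receptor of viral origin), both active in gut epithelium. The surrounding tissue came from the same animals, so the transgenes were shared by both groups, and a cecum without them was not analysed here. The labels do not name the promoters of the transgenes. In whole tissue, fewer cells of a type and less RNA per cell cannot be told apart.

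MHC class II molecules are pairs of an alpha and a beta chain that show peptides from engulfed material to CD4+ T cells. The invariant chain, encoded by Cd74, fills the peptide groove during assembly, is cut down by proteases in the endosome, and is exchanged for a peptide with the help of H2-DM. Ciita, the class II transactivator, binds no DNA itself and works through factors bound at the promoters of these genes, and interferon-gamma is its best known inducer. In the gut, dendritic cells, macrophages and B cells express class II constantly, and epithelial cells can express it as well.

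Expression was read from raw counts per gene, scaled to CPM, a gene's counts relative to the size of its library after normalization for composition. Total counts ran from 6632645 to 13350119, of which the 2 mitochondrial rRNA genes took 46.3% to 75.3%, and 1852065 to 5096066 counts fell on the remaining genes. If every library were thinned to 1852065 such counts, 12334 genes would be seen in the polyp library of mouse 1192 and 14284 to 16082 in the others. A floor of 3 counts corresponded to 0.214 to 0.676 CPM. Intervals and floors cover counting error only, since fragments copied by PCR are not independent molecules. The 10 epithelial markers listed for a check of the tissue were found in every library, at a summed 3447 to 7730 CPM.

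Promoters of class II genes are known for a shared module, an X box bound by the RFX complex and, downstream, a Y box that holds an inverted CCAAT bound by NF-Y. The RefSeq table of promoter windows on GRCm38.p6, each from 250 bases before to 50 after a gene start, held 4 of the 7 members. The 250 bases before the start are shown for the 3 in which an X-like and a Y box stood in that order, to show the module in these 3 genes; it was not found at either start of H2-DMa. Capitals mark the match to GNAACT, a part of the X box chosen after the sequences were seen, and the match to ATTGG, the Y box read on the strand of the gene.
H2-Aa: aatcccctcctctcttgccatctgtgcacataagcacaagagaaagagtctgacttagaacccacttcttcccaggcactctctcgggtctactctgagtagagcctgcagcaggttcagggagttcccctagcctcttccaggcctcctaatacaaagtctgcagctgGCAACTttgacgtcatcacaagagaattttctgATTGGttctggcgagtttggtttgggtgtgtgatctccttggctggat
H2-Eb1: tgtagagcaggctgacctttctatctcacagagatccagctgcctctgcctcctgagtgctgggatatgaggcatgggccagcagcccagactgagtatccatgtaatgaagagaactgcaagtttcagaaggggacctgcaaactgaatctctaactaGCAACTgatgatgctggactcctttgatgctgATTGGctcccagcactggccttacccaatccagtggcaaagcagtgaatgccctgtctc
H2-DMb1: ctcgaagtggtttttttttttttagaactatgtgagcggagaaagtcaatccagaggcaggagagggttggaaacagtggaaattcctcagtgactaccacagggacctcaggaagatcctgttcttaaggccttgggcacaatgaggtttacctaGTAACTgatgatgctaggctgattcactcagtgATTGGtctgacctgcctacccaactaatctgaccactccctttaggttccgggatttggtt
These windows lie at chr17:34287824-34288073 on the minus strand for H2-Aa, and on the plus strand at chr17:34305617-34305866 for H2-Eb1 and chr17:34152941-34153190 for H2-DMb1. Between the marked stretches lay 27 bases in H2-Aa, 26 in H2-Eb1 and 27 in H2-DMb1. The pair, with 10 to 30 bases between and on either strand, was present in 0.983% of 32851 windows in the table. TGATTGG, which contains ATTGG, stood in the same 3 windows and in 7.82% of all windows. CCAAT on either strand was found for all 4 members, for H2-DMa at 1 of its 2 starts, and in 37.4% of all windows. A different X box core, AGNNACAG, followed by ATTGG at the same spacing was present in 0.454% of windows, and among the members only in H2-Eb1, on the opposite strand. The interferon-gamma element TTCNNNGAA and the interferon-stimulated response element, searched on both strands, were in 0 of these 4 members and in 8.30% and 3.44% of windows. A match describes letters in these windows and shows no binding.

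In the surrounding cecum the class II genes differed widely between mice, and their summed level differed less between polyps. The 7 genes summed to 39.7 CPM in surrounding tissue of mouse 1119, 135 in mouse 1192 and 488 in mouse 1199. In the polyps of the same mice they summed to 51.3, 63.3 and 62.9 CPM. The highest surrounding sample was therefore 12.3 times the lowest, against 1.24 times among polyps. Cd74 weighed most in these sums in every library, followed in surrounding tissue by H2-Aa and then H2-Ab1. Single members such as H2-DMb1 (6.37-fold) and H2-Aa (4.30-fold) spanned more among polyps than the sum did. All 7 members had the order mouse 1119, 1192, 1199 from low to high in surrounding tissue, an order that 15.1% of the 10960 genes tested also had. As a share of counts outside mitochondrial rRNA, which does not depend on the normalization, the members took 0.010%, 0.0371% and 0.117% in surrounding tissue and 0.0131%, 0.0168% and 0.0152% in polyps. The surrounding library of mouse 1199 also had the highest share of mitochondrial rRNA (75.3%) and the lowest normalization factor (0.593), and their part in its class II level was not tested.

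**Figure D1:**
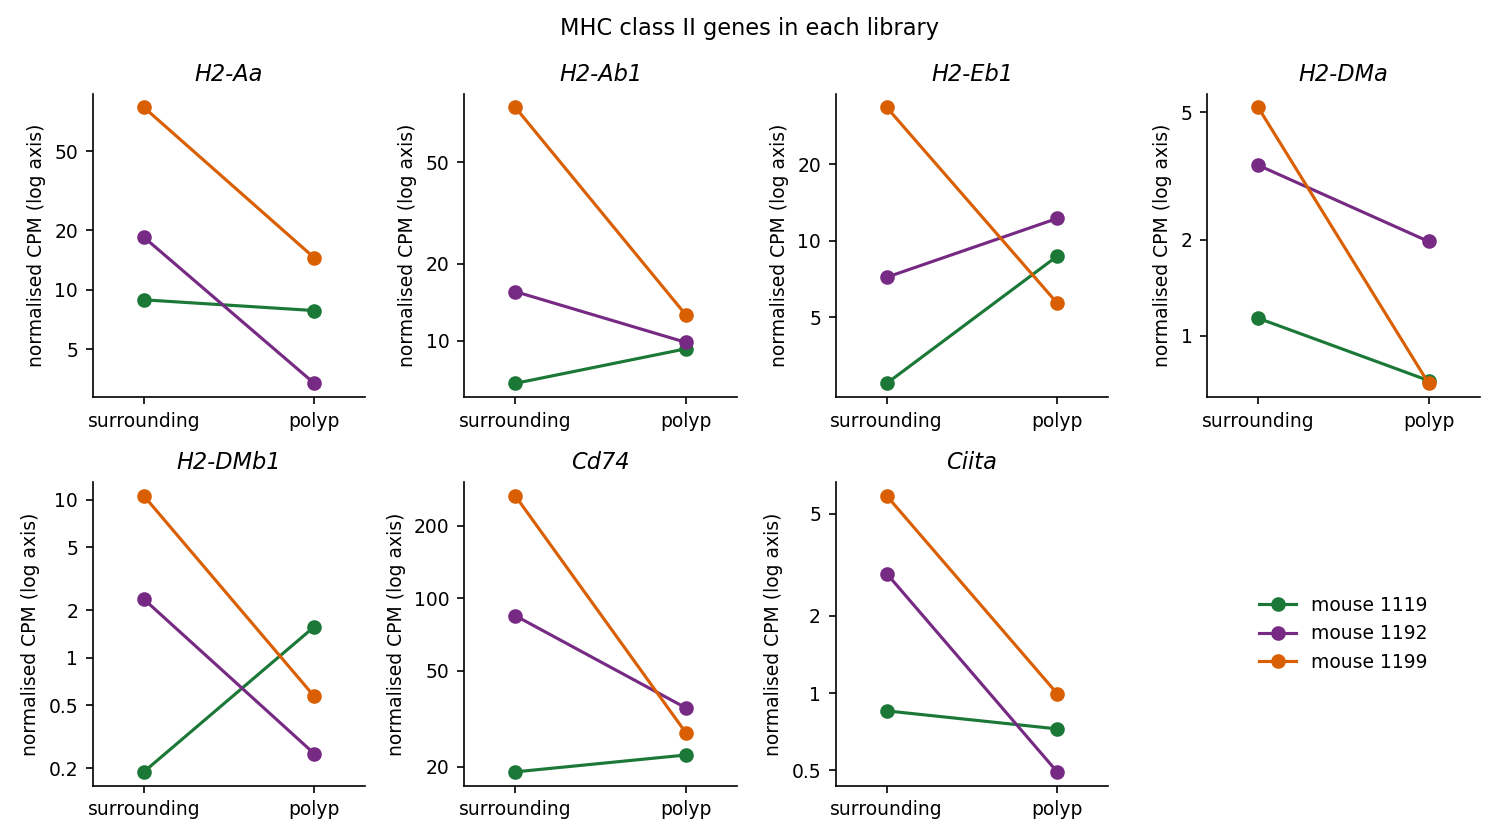
Normalised CPM of each class II gene (log axis, own scale per gene) in surrounding tissue and polyp, with lines joining the samples of a mouse. Surrounding tissue of mouse 1199 is the highest point in every panel, and the groups overlap in every panel.

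The classical alpha chain gene H2-Aa (ENSMUSG00000036594) measured 8.90, 18.4 and 83.4 CPM in surrounding tissue of mice 1119, 1192 and 1199, and 7.86, 3.37 and 14.5 CPM in their polyps. It was lower in the polyp of all 3 mice, yet the groups overlapped, since the polyp of mouse 1199 was above the surrounding tissue of mouse 1119. Means were 36.9 ± 40.5 and 8.58 ± 5.6 CPM (SD, n = 3). The log2 fold change of H2-Aa, polyp over surrounding, was -1.77 ± 0.46 (standard error, 3 pairs; 95% interval -2.85 to -0.68), with adjusted p = 0.115 in the quasi-likelihood test of edgeR, blocked by mouse. H2-Aa passed with DESeq2 (adjusted p = 0.00205), without mouse 1119 (adjusted p = 0.00487) and with no filter on low counts (adjusted p = 2.01e-08), while adjusted p was 0.411 without mouse 1192 and 0.551 without mouse 1199.

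Its partner, the beta chain gene H2-Ab1 (ENSMUSG00000073421), measured 6.82, 15.6 and 82.05 CPM in surrounding tissue and 9.31, 9.87 and 12.7 CPM in polyps, in the same order of mice. Polyps spanned 1.36-fold and surrounding samples 12.03-fold. The means were 34.8 ± 41.1 and 10.6 ± 1.79 CPM (SD, n = 3), with a log2 fold change of -0.99 ± 0.60 that did not pass (edgeR adjusted p = 0.551) and was -0.14 without mouse 1199. The other beta chain gene, H2-Eb1 (ENSMUSG00000060586), did not go the same way in all mice. It measured 2.75, 7.19 and 33.6 CPM in surrounding tissue and 8.70, 12.3 and 5.69 CPM in polyps, so that it was higher in 2 polyps and lower in the third. Its fitted log2 fold change was 0.03 ± 0.83 (95% interval -2.03 to 2.08, edgeR adjusted p = 0.994), and this value turned negative without mouse 1119 (-0.84), without mouse 1192 (-0.60), without the block (-0.64) and with upper-quartile normalization (-0.0094), while it was 1.18 without mouse 1199.

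Cd74 (ENSMUSG00000024610), the invariant chain gene, was the most abundant member. It measured 19.04, 84.8 and 267 CPM in surrounding tissue and 22.4, 35.1 and 27.7 CPM in polyps. Means were 124 ± 128 and 28.4 ± 6.40 CPM (SD, n = 3), with a log2 fold change of -1.45 ± 0.80 (edgeR adjusted p = 0.545), and of -0.56 without mouse 1199. The spread between surrounding samples exceeded the difference between the group means.

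The remaining members were near the limit of the depth. H2-DMa (ENSMUSG00000037649), the alpha chain of the peptide exchange factor, had 12, 48 and 23 counts in surrounding tissue and 6, 24 and 5 in polyps. It was lower in all 3 polyps, at 1.14 ± 0.725 against 3.25 ± 2.03 CPM (SD, n = 3; log2 fold change -1.38 ± 0.84, edgeR adjusted p = 0.525, and -0.74 without mouse 1199). H2-DMb1 (ENSMUSG00000079547), its beta chain, had 2, 33 and 47 counts in surrounding tissue and 13, 3 and 4 in polyps, so mouse 1119 ran against the other two (log2 fold change -1.93 ± 1.53, edgeR adjusted p = 0.637, and -0.22 without mouse 1199). H2-DMb1 has a near copy, H2-DMb2, and reads shared by both could not be followed in these counts. Ciita (ENSMUSG00000022504) had 9, 41 and 26 counts in surrounding tissue and 6, 6 and 7 in polyps. It did not pass the filter on low counts, and its differences in log2 CPM within mice 1119, 1192 and 1199 were -0.20, -2.47 and -2.49. Fitted without the filter, Ciita had a log2 fold change of -1.82 (edgeR adjusted p = 0.717).

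Of the 6 members tested, 0 passed at an adjusted p under 0.05 by edgeR, against 2.76% of the 10960 genes tested (1.72% higher and 1.04% lower in polyps). At an unadjusted p under 0.05 there was 1, H2-Aa, against 14.6% of all genes (6.27% lower in polyps), and DESeq2 called 1, also H2-Aa. Groups that did not overlap were found for 0 of the 6, against 8.58% of genes with all polyps lower and 9.84% with all polyps higher. H2-Aa and H2-DMa, 2 of the 6, were lower in the polyp of all 3 mice, as were 18.7% of genes, and 0 of the 6 were higher in all 3, as 19.6% of genes were. A negative log2 fold change was fitted for 5 of the 6, against 51.6% of genes. The median log2 fold change of the 6 was -1.41, beside -0.02 for all genes tested. Over the members that passed the filter in each case, the median was -2.25 without mouse 1119 (7 members, with Ciita), -1.29 without mouse 1192 (5 members, without H2-DMa) and -0.39 without mouse 1199 (6 members).

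The 3 pairs gave different pictures. In mouse 1119 the median difference in log2 CPM over the 6 members was 0.34, in mouse 1192 -1.02 and in mouse 1199 -2.73, beside 0.02, -0.02 and 0.02 for all genes. In the polyp of mouse 1199 all 6 members were lower (48.8% of genes), in that of mouse 1192 5 of 6 (51.1%) and in that of mouse 1119 2 of 6 (48.9%). In mouse 1199, 6 of 6 were lower by over 1 on the log2 scale, against 7.87% of genes. In mouse 1192, 3 of 6 were (17.4% of genes), and in mouse 1119 0 of 6 were (10.5% of genes), while H2-Eb1 and H2-DMb1 were higher there by over 1 (9.53% of genes). In mice 1192 and 1199 0 of 6 were higher by over 1 (12.7% and 8.7% of genes). Cd74 was 9.62 times lower in the polyp of mouse 1199 (95% exact counting interval 8.26 to 11.3) and 2.41 times lower in that of mouse 1192 (2.16 to 2.70). In mouse 1119 the ratio of polyp to surrounding Cd74 was 1.17 (0.957 to 1.44), an interval that includes 1. H2-Ab1 gave 6.48 times lower (5.13 to 8.27) in mouse 1199, 1.58 times lower (1.26 to 1.99) in mouse 1192 and a ratio of 1.37 (0.977 to 1.91) in mouse 1119. With 1 library per tissue and mouse, these intervals compare libraries, and whether the mice differ in their response could not be tested.

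**Figure D2:**
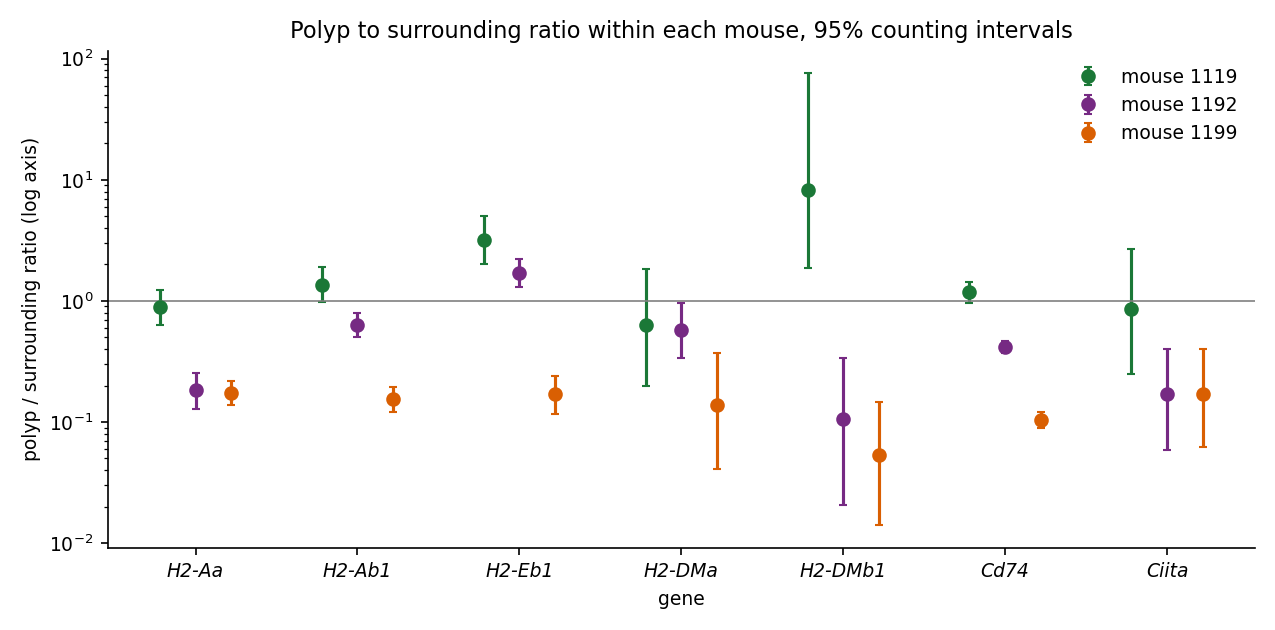
Ratio of polyp to surrounding level (log axis) of each class II gene within each mouse; bars are 95% exact counting intervals and the grey line marks a ratio of 1. Mouse 1199 lies below 1 for all 7 genes, and H2-Eb1 lies above 1 in mice 1119 and 1192.

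The span of the class II genes across surrounding samples was wide beside that of most genes. From the lowest to the highest surrounding sample, Cd74 spanned 3.81 on the log2 scale, H2-Eb1 3.59, H2-Ab1 3.58 and H2-Aa 3.22, where the median gene tested spanned 0.68. A larger span was found for 1.83%, 2.15%, 2.17% and 2.75% of genes tested. H2-DMb1 spanned 5.50, from only 2 counts at its lowest, Ciita 2.73 and H2-DMa 2.16. In polyps Cd74 spanned 0.65 and H2-Ab1 0.44, near the median of 0.75 for all genes there, while H2-Eb1 spanned 1.09, H2-DMa 1.37 and Ciita 1.00. H2-Aa spanned 2.09 and H2-DMb1 2.50 in polyps, with a larger span in 13.6% and 10.4% of genes.

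**Figure D3:**
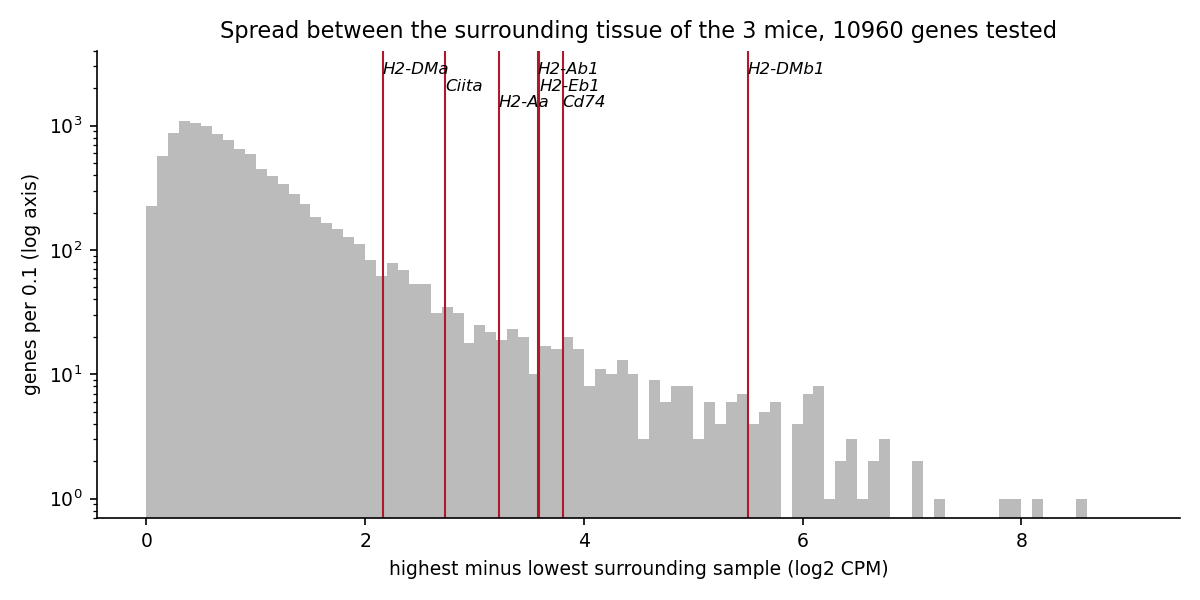
Number of genes (log axis) by the gap between the highest and the lowest surrounding sample in log2 CPM, for all genes tested; red lines mark the 7 class II genes, of which Ciita was not tested. The class II genes lie in the right tail, from 2.16 for H2-DMa to 5.50 for H2-DMb1, while the median gene is at 0.68.

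Per kilobase of exon, Cd74 was highest in surrounding tissue, at a level of 73.6 ± 76.5 CPM per kilobase (SD, n = 3). H2-Ab1 followed at 13.6 ± 16.02, H2-Aa at 9.72 ± 10.7 and H2-Eb1 at 7.46 ± 8.58, then H2-DMb1 at 2.60 ± 3.27, H2-DMa at 0.942 ± 0.589 and Ciita at 0.337 ± 0.264 CPM per kilobase. These SDs are spread between mice, which the genes of a library share, so they do not compare 1 gene with another. Within each surrounding library the order held, except that H2-DMb1 was below H2-DMa in mouse 1119 (0.113 against 0.330). Lengths joined the exons of all annotated transcripts of a gene, 3798 bases for H2-Aa and 2568 for H2-Ab1. By CPM without lengths, H2-Aa was above H2-Ab1 in each surrounding library. Cd74 measured 11.3, 50.5 and 159 CPM per kilobase in surrounding tissue of mice 1119, 1192 and 1199, against 2.66, 6.07 and 31.9 for H2-Ab1. In polyps Cd74 was again highest at 16.9 ± 3.81, and H2-Eb1 at 4.57 ± 1.69, H2-Ab1 at 4.13 ± 0.698 and H2-Aa at 2.26 ± 1.48 CPM per kilobase overlapped. H2-DMb1 at 0.473 ± 0.411 and H2-DMa at 0.330 ± 0.210 overlapped too, with Ciita lowest at 0.0774 ± 0.0264.

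Inside a library, the ratio of chain genes to each other depends on no scaling between libraries. H2-Eb1 had 0.403, 0.461 and 0.409 counts per count of H2-Ab1 in surrounding tissue of mice 1119, 1192 and 1199. In polyps it had 0.935 and 1.24 in mice 1119 and 1192, and 0.449 in mouse 1199. The intervals of the first pair of polyps (0.669 to 1.31 and 0.970 to 1.59) lay above those of all surrounding samples, which reached 0.628 at most. H2-Aa had 1.02 to 1.31 counts per count of H2-Ab1 in surrounding tissue, 0.844 and 1.15 in polyps of mice 1119 and 1199, and 0.342 (0.234 to 0.491) in the polyp of mouse 1192, the library with the fewest genes seen at equal depth. Other ratios differed between surrounding samples. Cd74 had 2.79 (2.12 to 3.71), 5.44 (4.70 to 6.31) and 3.25 (2.89 to 3.67) counts per count of H2-Ab1 there, and 2.40, 3.56 and 2.19 in polyps. Ciita had 0.125, 0.187 (0.131 to 0.262) and 0.0714 (0.0460 to 0.106) in surrounding tissue, and 0.0779, 0.05 and 0.0787 in polyps. Read mapping to the polymorphic chain genes depends on the strain's alleles, which the labels do not give.

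**Figure D4:**
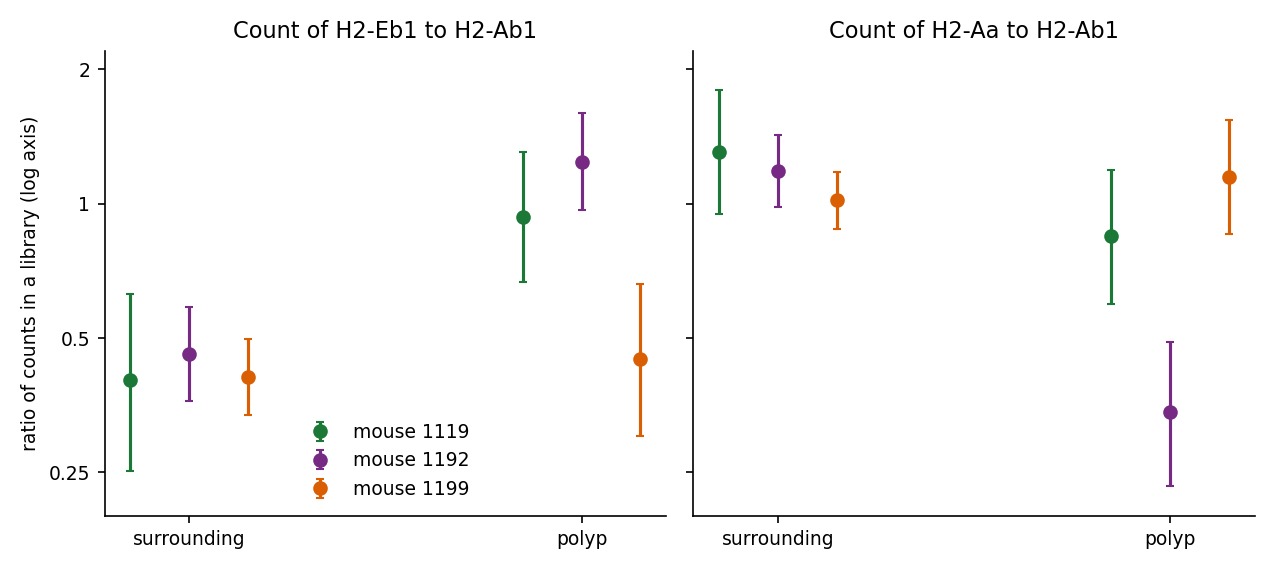
Counts of H2-Eb1 (left) and of H2-Aa (right) per count of H2-Ab1 in each library (log axis), with 95% exact counting intervals. The 3 surrounding samples lie together in each panel, whereas polyps 1119 and 1192 are higher for H2-Eb1 and polyp 1192 is lower for H2-Aa.

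Among genes that act on the class II molecule after synthesis, a pair of proteases fell in polyps. Of 12 genes for class II processing and turnover, 2 were lower in polyps and 0 higher, against 1.04% and 1.72% of all genes tested. Their median log2 fold change was -0.02. Ctss, cathepsin S, which removes the invariant chain, measured 93.4, 129 and 104 CPM in surrounding tissue of mice 1119, 1192 and 1199 and 55.0, 62.8 and 63.1 CPM in polyps. It fell by 0.84 ± 0.15 on the log2 scale (edgeR adjusted p = 0.0241). Sppl2a, the intramembrane protease that clears the last stub of the invariant chain, measured 701, 756 and 754 CPM in surrounding tissue and 452, 456 and 404 CPM in polyps, and fell by 0.75 ± 0.14 (edgeR adjusted p = 0.0263). Every polyp was below every surrounding sample for both genes, as for 8.58% of all genes tested. Neither passed without the block (adjusted p = 0.0642 and 0.0898), and neither passed without mouse 1119 (0.0830 and 0.0862), 1192 (0.0557 and 0.0889) or 1199 (0.121 and 0.138). Cd44, a surface partner of the invariant chain, and Ctsl, cathepsin L, did not pass (log2 fold changes 0.49 and 0.38, edgeR adjusted p = 0.344 and 0.442).

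Of the 5 other class II chains listed, 4 were found and none was abundant enough to test. H2-Oa, H2-Ob, H2-DMb2 and H2-Eb2 had 0 to 11 counts in each library. Of the 7 genes of the promoter-bound complex, 0 of 7 passed, with log2 fold changes from -0.56 (Rfxank) to 0.63 (Rfxap) and 0 at an unadjusted p under 0.05 by edgeR. Rfx5, the DNA-binding subunit, was at -0.10 (adjusted p = 0.945).

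In the interferon-gamma pathway list, 0 of 8 tested genes passed by edgeR, with a median log2 fold change of -0.21. At an unadjusted p under 0.05, 3 were lower, Irf1 and Irf8 among them, against 6.27% of all genes. Ifng itself had 0 counts in all 6 libraries, which allows up to 0.214 to 0.676 CPM at the floor of 3 counts. Irf1 was at -0.45 ± 0.16 (adjusted p = 0.233) and lower in all 3 polyps. Irf8, a factor of myeloid and B cells, measured 22.3, 17.8 and 13.5 CPM in surrounding tissue and 13.2, 11.1 and 10.4 CPM in polyps (log2 fold change -0.61 ± 0.25, adjusted p = 0.293). Of 6 costimulation and checkpoint ligands 2 could be tested, and neither passed (Cd274 at 0.81, adjusted p = 0.545).

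As list sums, immune cell markers spanned less than the class II genes across the surrounding samples. Many single markers were near the floor, and some spanned more than their sum, such as Cr2 (0.379 to 2.78 CPM). The 13 macrophage markers summed to 62.9, 77.1 and 77.8 CPM in surrounding tissue of mice 1119, 1192 and 1199 and to 72.05, 77.3 and 89.7 CPM in polyps. Mertk was the largest part in surrounding tissue, at 34.3, 44.6 and 26.6 CPM. Of the 13 markers, 9 were tested and 0 passed by edgeR. At an unadjusted p under 0.05, 2 were higher (Lyz2 and Cd14) and 1 lower (Mertk), against 14.6% of all genes in either direction. The 11 dendritic cell markers summed to 5.97, 3.56 and 6.31 CPM in surrounding tissue and 10.03, 2.39 and 9.39 CPM in polyps, with Batf3 and Cd209a at 0 counts in every library and 2 genes tested, of which 0 passed. The 10 B cell markers summed to 49.8, 25.7 and 38.99 CPM in surrounding tissue and 35.06, 29.03 and 31.1 CPM in polyps, mostly from Blnk. The 11 T cell and innate lymphoid markers summed to 14.1, 16.1 and 23.2 CPM in surrounding tissue and 6.89, 9.38 and 15.1 CPM in polyps. Of these, 2 were tested and 0 passed. Cd3d, Cd3e, Cd3g, Cd8a and Lck, set apart after their values were seen, summed to 4.64, 3.20 and 8.57 CPM in surrounding tissue. In polyps they summed to 1.09, 0.411 and 2.84 CPM (49, 45 and 38 counts against 9, 5 and 20). In mouse 1199 Cd3e held 15 of the 20 polyp counts and had 15 in surrounding tissue too (2.13 and 3.38 CPM). Cd4 and Il23r, in the same list, were higher in the polyp of mouse 1192, at 6 and 1 counts there. Il23r had 4 counts in each tissue of mouse 1119 (0.379 CPM in surrounding tissue and 0.484 in the polyp). The part of these cell types in the class II levels was not tested.

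Markers of other cell types were higher in polyps for part of their lists. Of 10 epithelial markers 3 rose (Krt8, Krt18 and Krt19), against 1.72% of all genes tested. Krt18 rose the most, from 114 ± 64.8 to 309 ± 64.2 CPM (SD, n = 3, edgeR adjusted p = 0.0102). Leaving out mouse 1119, 1192 or 1199 ended the call of Krt8 (adjusted p = 0.150, 0.353 and 0.128) and of Krt19 (0.197, 0.254 and 0.0718). Upper-quartile normalization (0.0688 and 0.0644) and a fit without robustness (0.0712 and 0.0655) ended both calls too. Krt8 also did not pass with RLE normalization (0.0522). Without the block 0 of the 3 passed. Cdx1 and Cdx2, transcription factors of intestinal epithelium in the same list, were lower in all 3 polyps and did not pass (log2 fold changes -0.59 and -0.29, edgeR adjusted p = 0.158 and 0.472). Of 6 fibroblast markers 4 rose (Col1a1, Col1a2, Col3a1 and Pdgfra), again against 1.72% of all genes. Their list summed to 61.5 to 142 CPM in surrounding tissue and 205 to 526 CPM in polyps. Without the block Col1a1 (adjusted p = 0.273) and Col3a1 (0.130) did not pass, and Pdgfra did not without mouse 1119 (0.0944) or 1199 (0.0560). Of 6 plasma cell markers 3 were tested and 0 passed, and of 6 endothelial markers 5 were tested and 0 passed. At an unadjusted p under 0.05 by edgeR, 1 plasma cell marker (Sdc1) and 3 endothelial markers (Cdh5, Vwf and Eng) were higher. Of all genes, 14.6% were under that p in either direction. The other tested plasma cell markers, Jchain and Xbp1, had log2 fold changes of -0.30 and 0.41 (edgeR adjusted p = 0.714 and 0.530). Tnfrsf17, in the same list, had 0 counts in every library.

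**Figure D5:**
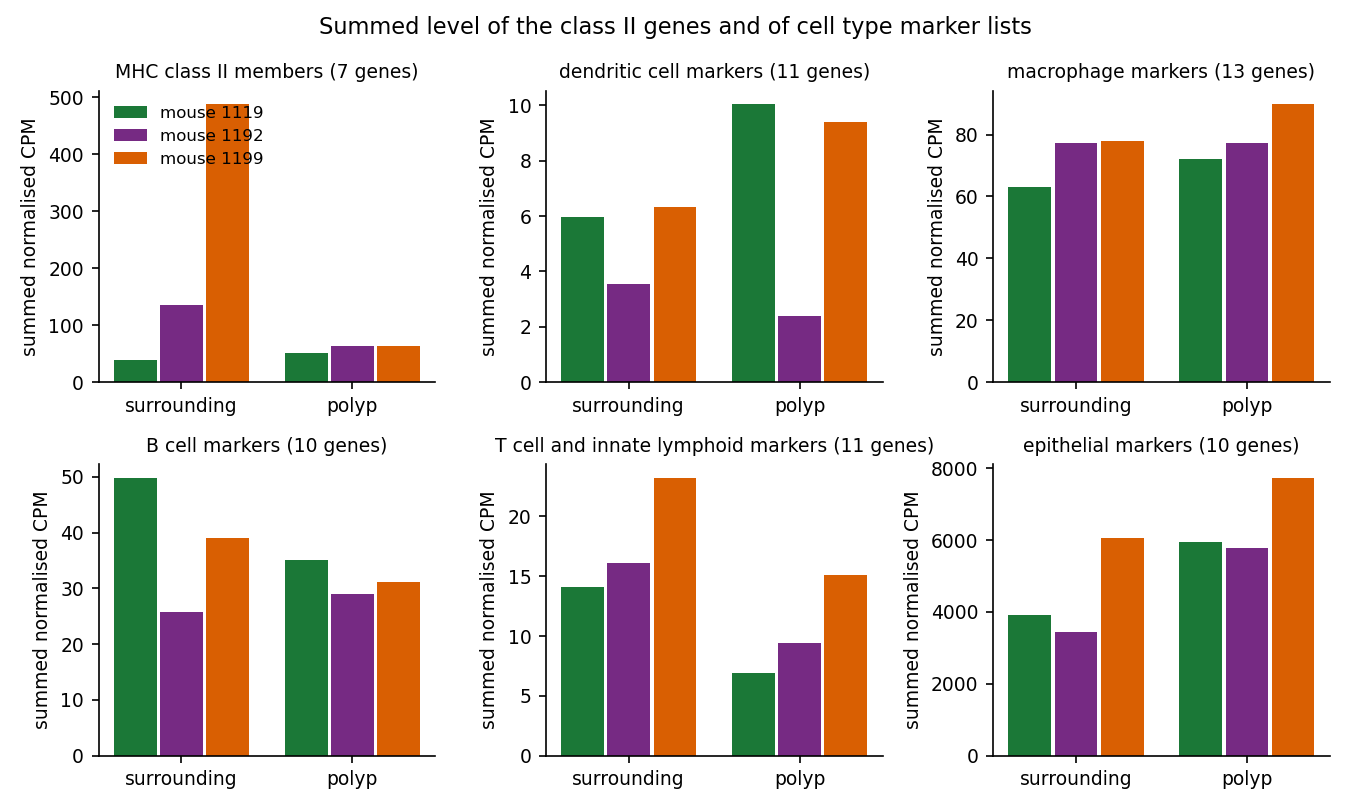
Summed normalised CPM of the class II genes and of 5 marker lists, per mouse, in surrounding tissue and polyp. The class II sum runs from 39.7 to 488 CPM in surrounding tissue, while the macrophage sum stays between 62.9 and 77.8 CPM there.

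The members followed each other over the 6 samples with Pearson r from 0.53 (H2-Aa with H2-Eb1) to 0.95 (H2-Aa with Ciita), values over 3 mice that each gave 2 of the samples. Among 5567 other named genes with a mean log2 CPM of at least 3, 22 had r above 0.9 with the members' mean standardised level. The closest were Ppp2r5d (r = 0.988), a regulatory subunit of protein phosphatase PP2A, and Brd2 (0.980), a bromodomain protein gene that is the next gene to H2-DMa on chromosome 17 in RefSeq. Then came Chtop (0.966), Fez2 (0.965), Phf23 (0.957), Clstn1 (0.95), Nasp (0.947) and Neo1 (0.943). They resembled the members in shape and not in size, as Brd2 went from 61.0 to 89.9 CPM across surrounding tissue and from 61.4 to 62.8 CPM across polyps.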

How the data were processed

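RNA of 6 cecum samples, a polyp and surrounding tissue of 3 mice, was treated with the MICROBEnrich and Meta-Bacteria RiboZero kits before library preparation, per the labels' protocols. Whether strand was kept is not given in the sources used here. The deposited values are raw counts per Ensembl gene without normalization, judged from the values. The submitters' processing notes list HTSeq 0.5.3p9, TopHat2 2.0.7 and Bowtie 0.12.9, without settings, and no source used here gives the build or the annotation.

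Gene symbols and exon lengths came from GENCODE M21, which named 32919 identifiers, and promoter windows from RefSeq. Genes were tested on all 6 libraries with edgeR 4.0.16 (R 4.3.3, limma 3.58.1), using TMM, filterByExpr with a minimum count of 10, robust quasi-likelihood fits, the mouse as a block, two-sided tests and Benjamini-Hochberg adjustment over 10960 genes. Standard errors were derived from the test statistic. Log2 CPM within a mouse used 0.5 added counts. The block follows the mouse number in the titles: deviations from the tissue means correlated at 0.0709, 0.111 and 0.134 within mice and at -0.106 to 0.00306 between mice. Libraries of the same tissue differed beyond counting noise, with a chi-square per degree of freedom of 19.6 to 68.6 over the 6 pairs compared.

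The members and lists were chosen with earlier results of these data known. The genes named are the 7 members, called genes and up to 4 with the smallest p of each list, markers at 0, and the 8 genes of closest profile. Some listed genes are not reported here. Alternatives were no block, RLE and upper-quartile normalization, leaving out the 5 genes above 1% of a library, no filter, a mean of at least 5 CPM, no robustness, DESeq2 1.42.0, and leaving out each mouse. The procedure was tested on simulated data. Figures were made with Python 3.11.15.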

Additional observations from a re-analysis of the deposited data

How the results depend on the processing

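Genes called over all numbered 303, and 87 without the mouse as a block (the pairing ignored), 753 with no filter on low counts, 501 with DESeq2, and 83 to 281 with a mouse left out. Class II members called were 0, but 1 (H2-Aa) with no filter, 1 (H2-Aa) with DESeq2 and 0 to 1 with a mouse left out; the cause was not tested. The block changed no call among the members. The members' median log2 fold change stayed negative under all 11 alternatives, from -2.25 to -0.39, both with a mouse left out, over the 4 to 7 members that passed each filter. H2-Eb1 reversed without the block (-0.64), with upper-quartile normalization (-0.0094) and without mouse 1119 (-0.84) or 1192 (-0.60), and did not without mouse 1199 (1.18). H2-Aa, H2-Ab1, H2-DMa, H2-DMb1 and Cd74 stayed negative wherever tested, but without mouse 1199 H2-Ab1 was at -0.14, H2-DMb1 at -0.22, Cd74 at -0.56 and H2-DMa at -0.74. H2-DMa, H2-DMb1 and Ciita, at 2 to 48 counts per library, are limited by depth.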

Other observations

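Several genes that load peptides on MHC class I lie between the class II genes on chromosome 17. Tap1, a subunit of the peptide transporter, measured 16.0, 23.7 and 31.8 CPM in surrounding tissue of mice 1119, 1192 and 1199 and 9.91, 9.38 and 15.8 CPM in polyps. It was lower in the polyp of all 3 mice, with a log2 fold change of -1.02 ± 0.24 (edgeR adjusted p = 0.0712), and passed with no filter (adjusted p = 0.00752) and with a mean of at least 5 CPM (adjusted p = 0.0344). Psmb8, an immunoproteasome subunit, measured 3.03, 3.06 and 11.9 CPM in surrounding tissue and 0.846, 1.97 and 1.42 CPM in polyps (log2 fold change -1.81 ± 0.65, adjusted p = 0.231). Tap2, the partner of Tap1, was at -0.29 ± 0.32 (adjusted p = 0.750) and lower by 0.99 on the log2 scale only in the polyp of mouse 1199. In surrounding tissue Tap1 and Tap2 had the same order of mice as the class II genes, over smaller spans, an order that 15.1% of genes tested also had. Psmb8 was highest in mouse 1199 too, but nearly equal in mice 1119 and 1192 (3.03 and 3.06 CPM). These genes were chosen by position after values were seen.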
